A study of Homo sapiens with 12 samples.

Results

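hsa-miR-9 and hsa-miR-9# (miR-9 and miR-9# from here on) are the mature miRNAs cut from the opposite arms of the miR-9 hairpin, and each had 1 assay among the 501 in the deposited table. These 2 assays were taken by name, as those whose number after miR- is 9 with no further digit. The mark # is the card maker's sign for the minor strand of a hairpin, elsewhere written with a star. The miRNAs were measured by quantitative PCR on TaqMan array cards in 12 samples from a pair of human lines of embryonal carcinoma, 2102Ep and NTera-2, to ask which miRNAs change when SOX2 is silenced. The 4 groups of 3 biological replicates were 2102Ep siSOX2, 2102Ep NC, NTera-2 siSOX2 and NTera-2 NC, where siSOX2 is an siRNA against SOX2 and NC a non-targeting control siRNA. All cells were undifferentiated when they were exposed to siRNA for 6 h, with 15 nM for 2102Ep and 30 nM for NTera-2 and a different Lipofectamine reagent for each line, and RNA was taken 72 h later. Every sample therefore carried an siRNA, and dose and reagent cannot be told apart from the line. Each line is a single tumour-derived culture, and SOX2 mRNA itself was not analysed here.

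A miRNA hairpin is cut out of its host transcript by Drosha and then by Dicer, which leaves a short duplex of both arms. One strand is loaded into Argonaute and guides it to messages that pair with its seed, while the other strand is often, though not always, degraded. miR-9 is abundant in the brain, where it is known for promoting the switch from neural progenitor to neuron. Its known targets include the nuclear receptor TLX and REST, a repressor of neuronal genes, and miR-9# is known to repress CoREST, the partner of REST. SOX2 is a transcription factor of pluripotent cells and of neural progenitors. Embryonal carcinoma cells are the stem cells of germ cell tumours, and NTera-2 cells can form neurons whereas 2102Ep cells differentiate poorly.

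Both mature sequences were matched in the RefSeq table (GRCh38.p14). They are shown because the 2 assays read them separately, and the capitals mark the seed, bases 2 to 8 from the 5′ end.
miR-9: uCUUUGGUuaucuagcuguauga
miR-9#: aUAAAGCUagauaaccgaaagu
The seeds differ, and each was found in 1 human mature miRNA name of the table's 2370. Counting only pairs of A with U and of G with C, the longest unbroken stretch of miR-9 that can pair with miR-9# covers 12 bases. It is shown here in capitals within miR-9 and begins inside the seed of miR-9. Pairs of G with U, which also form in RNA, were not counted.
miR-9, stretch paired with miR-9#: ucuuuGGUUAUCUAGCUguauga

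Both strands are encoded, with the same mature sequences, at 3 human loci. MIR9-1 lies at chr1:156420341-156420429 on the minus strand, within the lncRNA gene MIR9-1HG. MIR9-2 lies at chr5:88666853-88666939 on the minus strand, within the lncRNA gene MIR9-2HG. MIR9-3 lies at chr15:89368017-89368106 on the plus strand, within the lncRNA gene MIR9-3HG. The hairpins are printed with both mature arms in capitals, miR-9 first, to show what an assay can and cannot tell apart.
MIR9-1: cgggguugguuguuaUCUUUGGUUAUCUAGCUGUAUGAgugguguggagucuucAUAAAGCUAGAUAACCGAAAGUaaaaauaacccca
MIR9-2: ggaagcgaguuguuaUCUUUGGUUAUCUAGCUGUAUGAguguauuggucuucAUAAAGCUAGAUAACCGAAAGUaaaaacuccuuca
MIR9-3: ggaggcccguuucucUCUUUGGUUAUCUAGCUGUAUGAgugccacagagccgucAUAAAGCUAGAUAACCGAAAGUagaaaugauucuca
They differ only in the outer stem and in the loop, which spans 16 bases in MIR9-1 and MIR9-3 and 14 bases in MIR9-2. A level of miR-9 or miR-9# is thus a sum over the loci, and none of the values below can be assigned to 1 of them.

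Values are dCt, the cycle at which the signal crossed the threshold (raw Ct) less a constant per sample and card, so that a lower dCt means more RNA and 1 cycle is about 1 log2 unit. miR-9 lies on card A, with 290 of the assays, and miR-9# on card B, with 211. Between 421 and 451 assays were measured per sample, the lowest number in 2102Ep siSOX2 replicate 2, and replicate dCt correlated by 0.940 to 0.989 across assays. Both strands were measured in all 12 samples. Embryonal carcinoma markers (the miR-302 and miR-371 clusters) were all measured in every group, at mean raw Ct of 13.9 to 26.1 over their 8 assays. Of 5 neural markers, the 3 in the table were measured in every group, at mean raw Ct of 23.3 to 26.8. Of the 2 mesenchymal markers in the table, 0 were measured in all samples of 2102Ep siSOX2, against 2 in 2102Ep NC, and 1 in each NTera-2 group. The 3 blood markers in the table were measured in all samples of every group except 2102Ep siSOX2, with 2 of 3. Their part in the results was not tested. In bulk samples, fewer cells with a miRNA and less of it per cell cannot be told apart.

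1 control sample stood apart for miR-9. In 2102Ep NC replicate 1, miR-9 lay 2.54 log2 units above the mean of the other 2 replicates, whereas the median card A assay lay 0.12 above it. Of 264 card A assays, 5 lay over 2 units above both other replicates there, and they were let-7b, let-7c, miR-142-3p, miR-653 and miR-9, named after their values were seen. let-7b and let-7c are miRNAs of differentiated cells, and miR-142-3p is a blood cell miRNA. No other let-7 assay and no other blood marker was among these 5, and why they stood apart was not tested. No card B assay (0 of 165) did so, and miR-9# lay 0.56 below the mean of its other replicates in that sample. The changes and differences of both strands without this replicate are given beside the comparisons that use the group.

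SOX2 silencing in 2102Ep cells was accompanied by a 4.78-fold rise of miR-9#. The dCt of hsa-miR-9# was -2.18, -2.12 and -2.07 in 2102Ep siSOX2 and 0.51, 0.22 and -0.32 in 2102Ep NC. Every siSOX2 sample was thus over 1 cycle below every NC sample, and the groups did not overlap. The siSOX2 samples lay within 0.11 cycles of each other, and 97.4% of assays had a larger SD in that group than the 0.055 of miR-9#. The log2 fold change was 2.26 (SE 0.22, adjusted p = 1.93e-04 in the limma fit over all assays). Of the 432 assays tested, 63 (14.6%) passed the adjusted threshold, 20 of them higher (4.63%) and 43 lower (9.95%), and miR-9# had the second lowest p and the fifth largest rise. The median change of all assays was -0.0025. Non-overlap alone was more common, at 31.9% of assays in either direction and 13.9% upwards. The change of miR-9# ranged from 2.07 to 2.81 over all alternatives, with adjusted p between 8.85e-05 and 0.00786.

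The dCt of hsa-miR-9 was 0.48, 1.03 and 0.16 in 2102Ep siSOX2 and 0.04, 2.55 and 2.62 in 2102Ep NC. The siSOX2 samples were alike, while NC replicate 1 had more miR-9 than any siSOX2 sample and the other NC replicates had less, so that the groups overlapped. The fold change was 2.27, or 1.18 on the log2 scale (SE 0.59, 95% interval -0.13 to 2.49, adjusted p = 0.246 with limma), and did not pass the threshold. The SD of miR-9 in 2102Ep NC was 1.47, against a median of 0.31 over 429 assays, and 2.56% of assays had a larger one. Without NC replicate 1, the log2 change was 2.03 (SE 0.32) and passed the threshold (adjusted p = 0.00636), and that of miR-9# was 2.07. With any other sample left out, or with another reference or fit, the adjusted p for miR-9 lay between 0.0810 and 0.593. Whether miR-9 passed the threshold thus depended on 1 control sample, and the call for miR-9# did not.

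**Figure D1:**
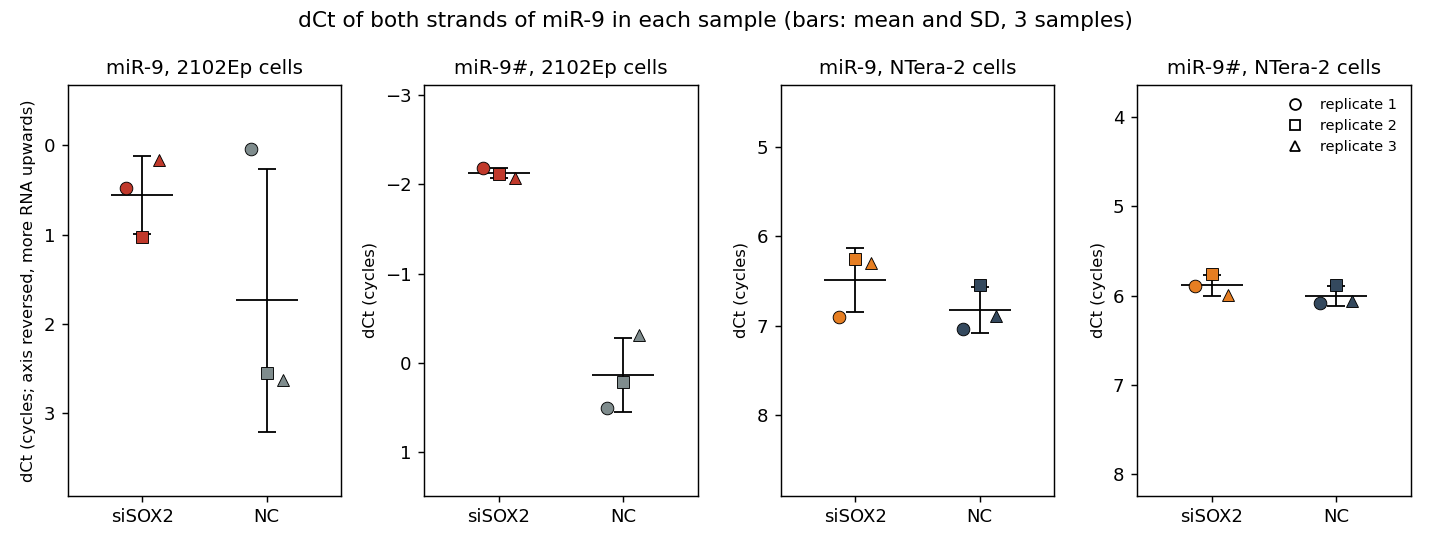
dCt of miR-9 and miR-9# (cycles, axis reversed so that more RNA is upwards) in each siSOX2 and NC sample of 2102Ep and NTera-2 cells, with the mean and SD of 3 samples; all panels span the same number of cycles. The siSOX2 and NC samples are separated for miR-9# in 2102Ep cells, at -2.18 to -2.07 against -0.32 to 0.51, and overlap in the other 3 panels.

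In NTera-2 cells neither strand passed the test. The dCt of miR-9# was 5.90, 5.76 and 6.00 in NTera-2 siSOX2 and 6.08, 5.88 and 6.06 in NTera-2 NC, and the groups overlapped, with every sample between 5.76 and 6.08. Its log2 fold change was 0.12 (SE 0.22, 95% interval -0.37 to 0.61, adjusted p = 0.824 with limma). The dCt of miR-9 was 6.90, 6.26 and 6.30 in NTera-2 siSOX2 and 7.04, 6.55 and 6.89 in NTera-2 NC, and the groups overlapped. Its log2 fold change was 0.34 (SE 0.60, 95% interval -0.99 to 1.67, adjusted p = 0.824). That SE pools the spread of all 4 groups, among them 2102Ep NC with an SD of 1.47. With the 6 NTera-2 samples alone the SE was 0.27 (adjusted p = 0.571 with limma). In the fit over 12 samples, 25 of 451 NTera-2 assays (5.54%) passed the threshold, 8 of them higher (1.77%) and 17 lower (3.77%), and the median change of all assays was -0.27. With the card's global mean as reference the median change was 0.063, and miR-9# then had a log2 change of 0.63 and miR-9 of 0.56, with adjusted p = 0.230 and 0.671. If same-numbered NTera-2 samples are taken as pairs, which is not settled, miR-9 was higher in siSOX2 by 0.14, 0.29 and 0.59 cycles within the 3 pairs. miR-9# was higher by 0.19, 0.12 and 0.068. With these pairs as a block neither passed (adjusted p = 0.755 for miR-9 and 0.795 for miR-9#). Over all alternatives both changes stayed above 0 and below the threshold, at 0.063 to 0.63 for miR-9# and 0.16 to 0.56 for miR-9.

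The change of miR-9# differed between the lines. The 2102Ep change exceeded the NTera-2 change by 2.13 log2 units (SE 0.31, 95% interval 1.45 to 2.82, adjusted p = 0.00387 in limma), the third lowest p among 385 assays, of which 24 (6.23%) passed the threshold. With the replicate number as a block the adjusted p was 0.0412, and with the global mean as reference the difference was 1.60 (adjusted p = 0.0312). Without 2102Ep NC replicate 1 it was 1.95 (adjusted p = 0.00977). In the main fit the median of this difference was 0.27 over all assays and 0.39 over those on card B. For miR-9 the difference was 0.84 (SE 0.83, 95% interval -0.996 to 2.68, adjusted p = 0.644). It was 1.69 without 2102Ep NC replicate 1 (adjusted p = 0.0583), 0.44 without replicate 2 (0.842) and 0.40 without replicate 3 (0.850). A difference between the lines was therefore detected for the minor strand and not for miR-9, whose interval is wide and includes the value of miR-9#.

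**Figure D2:**
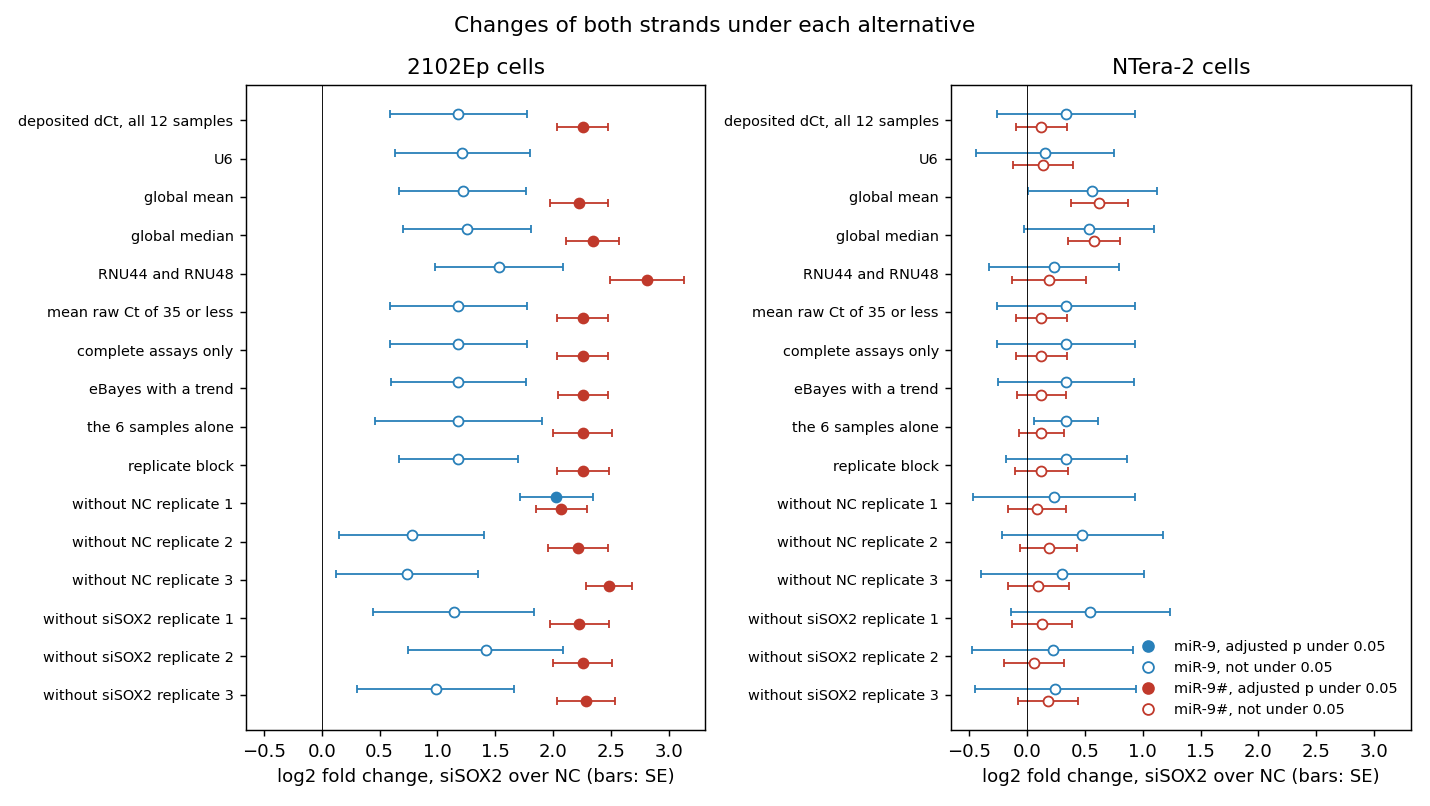
Log2 fold changes of miR-9 (blue) and miR-9# (red), siSOX2 over NC, in 2102Ep and NTera-2 cells under each alternative, with SE; filled points have an adjusted p under 0.05. miR-9# is called in 2102Ep cells under every alternative (2.07 to 2.81), and miR-9 only without NC replicate 1 (2.03); U6 gave no value for miR-9# in 2102Ep cells.

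Levels were set across the 4 groups as log2 units over the mean of the card's assays measured in all 12 samples, because the deposited constant of card B could be traced to reference RNAs in NTera-2 cells only. The level of miR-9 was 5.46 ± 0.52 in 2102Ep siSOX2, 4.24 ± 1.35 in 2102Ep NC, 3.36 ± 0.23 in NTera-2 siSOX2 and 2.79 ± 0.23 in NTera-2 NC (log2 over the card mean, SD, n = 3 each). In this order the samples of 2102Ep NC, at 3.32 to 5.79, overlapped with those of both siSOX2 groups. NTera-2 siSOX2, at 3.10 to 3.54, lay just above NTera-2 NC, at 2.64 to 3.06, whereas these groups overlapped by dCt. How many other assays did so was not counted. The difference of miR-9 between the NTera-2 groups did not pass the test on this scale (adjusted p = 0.671).

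The order of miR-9# was another. Its level was 1.45 ± 0.025 in 2102Ep siSOX2, -0.77 ± 0.37 in 2102Ep NC, 2.34 ± 0.32 in NTera-2 siSOX2 and 1.71 ± 0.26 in NTera-2 NC (same scale, SD, n = 3 each), so that 2102Ep NC was lowest. The samples of 2102Ep siSOX2, at 1.44 to 1.48, lay just below those of NTera-2 NC, at 1.57 to 2.01. NTera-2 siSOX2, at 2.03 to 2.67, lay just above NTera-2 NC, whereas these groups overlapped by dCt. The difference of miR-9# between the NTera-2 groups did not pass the test on this scale (adjusted p = 0.230). Levels of the strands are not set against each other here, since each assay and card has its own efficiency and constant.

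**Figure D3:**
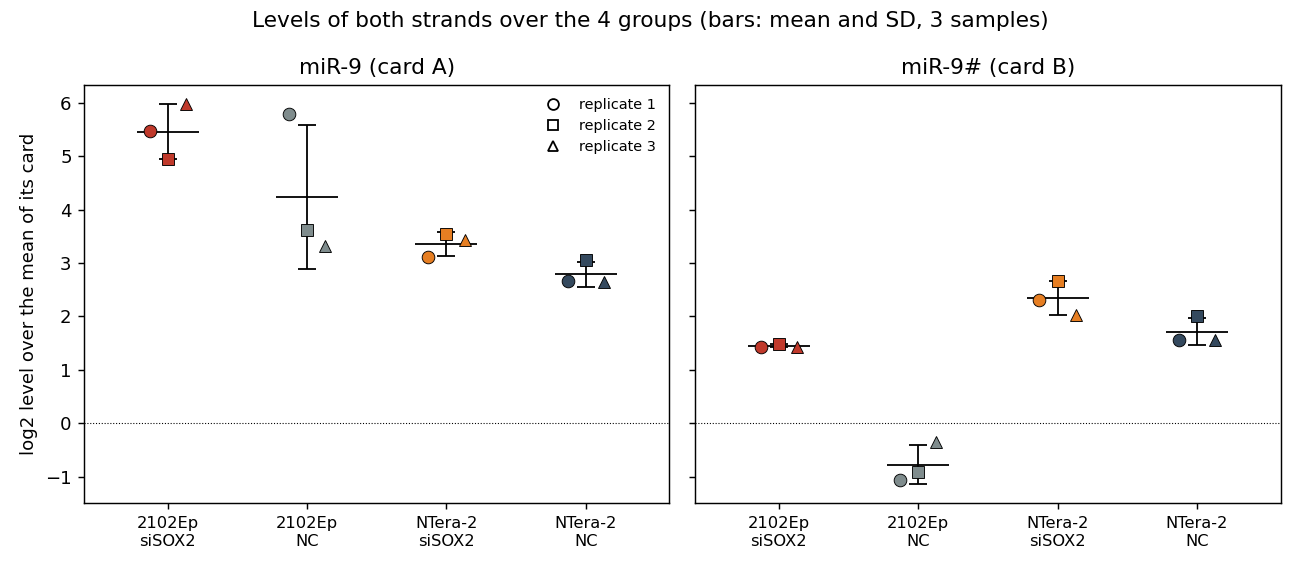
Log2 level of miR-9 and miR-9# over the mean of their cards in each sample of the 4 groups, with the mean and SD of 3 samples. miR-9 is highest in 2102Ep siSOX2 (5.46) and lowest in NTera-2 NC (2.79), and miR-9# is lowest in 2102Ep NC (-0.77).

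In control cells, miR-9 was higher in 2102Ep NC than in NTera-2 NC by 1.45 log2 units (SE 0.55, adjusted p = 0.0313 with limma), a comparison in which 299 of 386 assays (77.5%) passed the threshold. The call was lost without 2102Ep NC replicate 1, where the difference was 0.68 (adjusted p = 0.0787), and without NTera-2 NC replicate 1 or 3 (adjusted p = 0.0733 and 0.0765). It was also lost by the card median (0.93, adjusted p = 0.144), with the 6 samples alone (adjusted p = 0.0809) and with the replicate block (adjusted p = 0.0950). It was larger with the deposited dCt (5.09, adjusted p = 5.97e-06), U6 (5.63, 1.59e-06) and RNU44 with RNU48 (2.97, 5.25e-04). These references also moved the median difference of the assays tested from -0.17 to 5.35, 4.04 and 1.68, with U6 over 234 assays and the others over 386. After SOX2 silencing miR-9 was higher in 2102Ep siSOX2 than in NTera-2 siSOX2 by 2.10 (SE 0.55, adjusted p = 0.00465), where 286 of 385 assays (74.3%) passed. This difference was called under every alternative run, at 1.65 to 6.69.

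miR-9# was lower in 2102Ep NC than in NTera-2 NC by the card mean, with a difference of -2.49 (SE 0.25, adjusted p = 4.92e-06), but this was -2.34 without 2102Ep NC replicate 1, -0.14 (adjusted p = 0.695) against RNU44 and RNU48 and turned to 5.87 with the deposited dCt. After silencing the difference was -0.89 (SE 0.25, adjusted p = 0.00695) by the card mean, -0.31 (adjusted p = 0.230) by the card median, 2.48 against RNU44 and RNU48 and 8.01 with the deposited dCt. Which line held more miR-9# is thus set by the reference. The reference RNAs themselves differed between the lines, with U6 on card A at a mean raw Ct of 14.9 in both 2102Ep groups, against 10.6 in NTera-2 siSOX2 and 10.8 in NTera-2 NC. RNU48 on card B had a mean raw Ct of 18.8 in 2102Ep siSOX2 and 18.1 in 2102Ep NC, against 15.9 in NTera-2 siSOX2 and 16.1 in NTera-2 NC.

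The strands were then compared within each sample, as the log2 level of miR-9# minus that of miR-9, whose change between groups says whether they changed by unequal amounts. From dCt, this difference was 2.65, 3.15 and 2.23 in 2102Ep siSOX2 and -0.46, 2.33 and 2.94 in 2102Ep NC. Only NC replicate 1 stood apart. The difference was on average 1.07 higher in 2102Ep siSOX2, with p = 0.5 in the exact two-sided permutation test, whose smallest possible p with 3 samples against 3 is 0.1. It was 0.041 higher without NC replicate 1, 1.44 without replicate 2 and 1.74 without replicate 3. In NTera-2 cells it was 1.01, 0.50 and 0.31 in NTera-2 siSOX2 and 0.96, 0.66 and 0.83 in NTera-2 NC, a mean change of -0.21 (exact permutation p = 0.5), which ran from -0.42 to -0.066 with 1 sample left out, the ends being without siSOX2 replicate 1 and replicate 3. With the global mean as reference it was 0.062. Permuting labels within both lines together, the mean change of 0.43 had an exact p of 0.685 (400 relabellings, smallest possible 0.005) and was -0.087 without 2102Ep NC replicate 1. An unequal change of the strands on silencing was not detectable at this sample size.

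By the card mean, the lines differed in the strand difference by more than the spread of the replicates. By the card mean it was -4.03, -3.46 and -4.53 in 2102Ep siSOX2, against -0.79, -0.87 and -1.39 in NTera-2 siSOX2. It was -6.84, -4.52 and -3.67 in 2102Ep NC, against -1.10, -1.05 and -1.08 in NTera-2 NC. By the card mean the lines did not overlap in either condition. How many other hairpins did so was not counted, and 77.5% of single assays passed the threshold between the lines in control cells and 74.3% after silencing. The mean difference between the lines was -2.99 after silencing and -3.94 in control cells, each with p = 0.1, the smallest the exact permutation test can give. Without 2102Ep NC replicate 1 the difference in control cells was -3.02. With the deposited dCt the difference between the lines turned to 2.07 after silencing and 0.78 in control cells, where the lines then overlapped. Raw Ct with no reference gave -2.65 and -3.55. Its direction is thus set by the reference.

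Other hairpins with both strands on the cards show how far 2 strands can part in these data. In each line 63 hairpins had both strands tested. For 2102Ep cells the second strand was marked # in 50 of them and the hairpin was split into 5p and 3p in 13. Both strands were higher in 17 hairpins and lower in 21, and they ran in opposite directions in 25. The rise of miR-9# was the largest of any second strand (# or 3p) among them, and that of miR-9 the third largest of any first strand. The strand changes of miR-9 differed by 1.07, rank 14 of 63 by size, next to those of miR-744 (-1.16) and miR-518c (1.06), with a median size of 0.55. Across the 63 hairpins, 13 had 1 strand past the threshold and 0 had both with limma (5 had both at an unadjusted p under 0.05). Without 2102Ep NC replicate 1 the strand changes of miR-9 differed by 0.041, and only 1 of the 63 hairpins had a smaller difference. The rise of miR-9# was then the 2nd largest of any second strand and that of miR-9 the largest of any first strand. miR-9 was then the 1 hairpin of 63 with both strands called, where the median size was 0.57. That replicate was singled out by its value of miR-9, so these ranks follow in part from the choice and are no separate support. The strand changes of miR-9 differed by 1.44 without NC replicate 2 and by 1.74 without NC replicate 3.

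In NTera-2 cells, where the median change of all assays was -0.27, both strands were lower in 41 hairpins and higher in 8, miR-9 among those higher, with opposite directions in 14. The strand changes of miR-9 differed by -0.21, rank 42, next to those of miR-30d (-0.23) and miR-545 (0.21), below the median size of 0.34. Both strands passed the threshold in 2 hairpins, miR-31 and miR-135b (named after their values were seen), which fell. In 51 of the 63 pairs, as for miR-9, the strands lie on different cards, so that a shift of 1 card enters their difference.

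**Figure D4:**
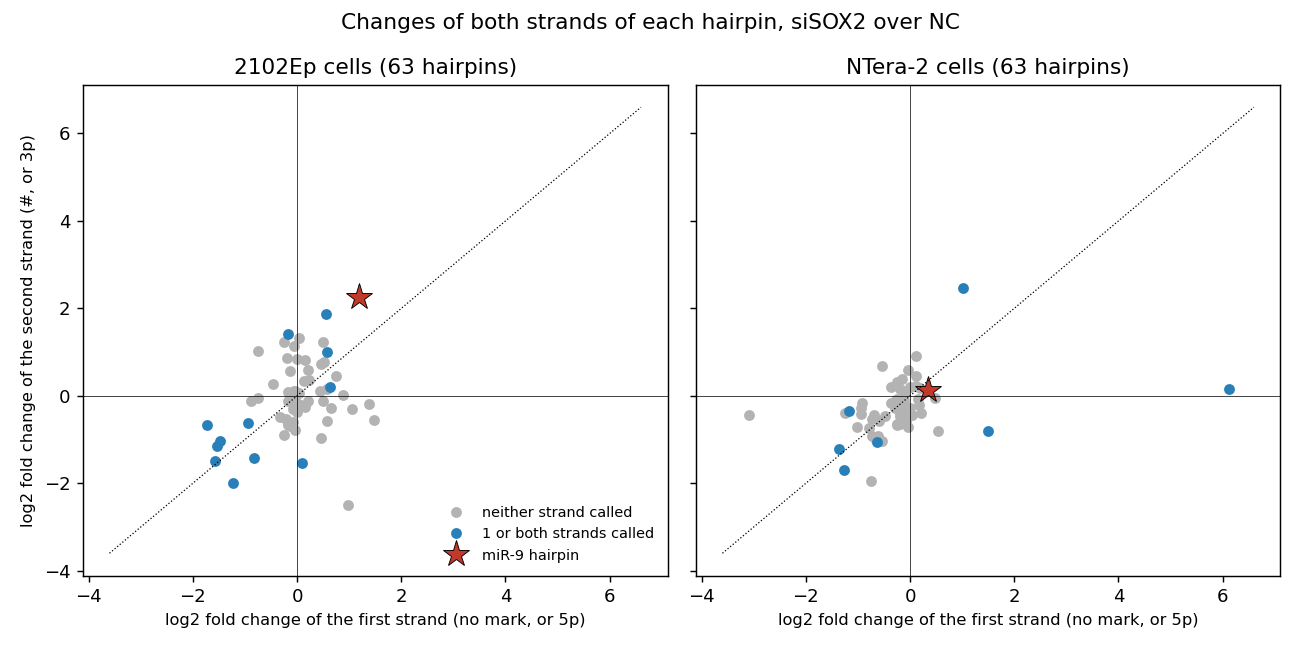
Log2 fold changes (siSOX2 over NC) of the first strand (x axis) and the second strand (y axis) of 63 hairpins, with 2102Ep cells on the left and NTera-2 cells on the right; the dotted line marks equal changes and blue points have 1 or both strands called. The star of miR-9 lies at 1.18 and 2.26 in 2102Ep cells, the highest point on the y axis there, and at 0.34 and 0.12 in NTera-2 cells.

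A list of other miRNAs of neurons, neural progenitors or oligodendrocytes held 17 assays, without miR-9 and miR-9#. Of the 13 tested in 2102Ep cells, 1 rose and 2 fell with limma, beside 4.63% higher and 9.95% lower over all assays, and the median log2 change was -0.39 beside -0.0025 over all assays. miR-138, a miRNA of neuronal dendrites, rose by 1.45 (SE 0.23, adjusted p = 0.00331). miR-218, a miRNA of motor neurons, fell by 0.73 (SE 0.16, adjusted p = 0.0100), and miR-218-2#, from the opposite arm of a miR-218 hairpin, fell by 2.11 (SE 0.47, adjusted p = 0.0272). miR-124, a highly abundant miRNA of neurons read here by an assay named for the mouse (mmu-miR-124a), had a change of -0.18 (adjusted p = 0.758). With RNU44 and RNU48 as reference 1 of the 13 was called, and 2 were with the global median. With 1 sample left out 2 to 3 were called, and 3 only without siSOX2 replicate 2.

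In NTera-2 cells 2 of 15 neural assays tested rose and 1 fell, beside 1.77% and 3.77% over all assays, with a median of -0.043 beside -0.27 over all assays. miR-138 rose by 1.26 (SE 0.25, adjusted p = 0.0242) and miR-218 by 0.77 (SE 0.16, adjusted p = 0.0227), while miR-7, a miRNA of neuroendocrine cells read here by an assay named for the fly sequence (dme-miR-7), fell by 1.18 (SE 0.26, adjusted p = 0.0261). These calls were fragile. With the replicate block, under which same-numbered NTera-2 samples are paired, 0 of the 15 passed with limma (5 at an unadjusted p under 0.05), and 0 also passed without NC replicate 3 or siSOX2 replicate 3 (3 of 14 and 4 of 15 unadjusted) and 1 without siSOX2 replicate 2. The change differed between the lines for miR-218 alone among 11 tested (-1.50, SE 0.22, adjusted p = 0.00387), beside 6.23% called over all assays, a call lost with the block (0 called, 2 unadjusted).

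Between the lines, 7 of 11 neural assays passed the threshold in control cells, 5 higher in 2102Ep NC and 2 lower, and 9 of 11 after silencing, 3 higher in 2102Ep siSOX2 and 6 lower, by the card mean. How many neural assays passed in each direction depended on the reference. With the deposited dCt 11 of 11 were higher in 2102Ep cells in both comparisons, and with RNU44 and RNU48 7 of 11 were higher in both and the others did not pass. miR-124 was higher in 2102Ep cells by the card mean, by 1.99 after silencing and 1.37 in control cells, and lay above 0 with every other reference. miR-7 had differences of -1.20 after silencing and -1.51 in control cells by the card mean, but of 2.17 and 0.83 against RNU44 and RNU48. The background was 77.5% of all assays in control cells and 74.3% after silencing. Without NTera-2 NC replicate 3, 4 neural assays were called in control cells.

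Assays most like each strand were sought over the 12 samples, by Pearson's r of the level over the card mean among 369 assays, as a description only, since 4 groups and shared cards lie behind every r. For miR-9# they were miR-24 (r = 0.944), miR-301b (0.938), miR-744 (0.926), miR-424 (0.914) and miR-30d (0.901). Of these, miR-24, miR-301b, miR-424 and miR-30d rose in 2102Ep cells, by 0.97, 1.17, 1.52 and 2.33 on the log2 scale (adjusted p = 0.0100, 0.00239, 0.00331 and 0.00669). miR-744 had a change of 0.57 (adjusted p = 0.0747). In NTera-2 cells all 5 lay between -0.24 and 0.30 and none passed (adjusted p of 0.465 or more). Over all assays 4.63% were called higher in 2102Ep cells. These 5 were picked for likeness to miR-9# over the same samples, so changes like its own are built in by the choice. miR-24 and miR-424 are known for restraining the cell cycle and miR-424 for its expression in differentiating myeloid cells.

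For miR-9 the nearest assays were miR-432 (r = 0.859), miR-149# (0.846), miR-1291 (0.808), miR-380-5p (0.798) and miR-1248 (0.792). miR-432 and miR-380-5p lie in the imprinted DLK1-DIO3 cluster. None of the 5 passed the test in either line, the lowest adjusted p being 0.0936 for miR-380-5p in 2102Ep cells. miR-9 and miR-9# had an r of -0.30 with each other, and miR-9# ranked 200 of 369 by likeness to miR-9. Without 2102Ep NC replicate 1 (chosen after the data were seen), r was -0.044 and 1 of the 5 nearest assays of miR-9 was shared with those over 12 samples, against 3 of 5 for miR-9#. The pattern nearest to miR-9 over the samples thus rested on that sample more than the one nearest to miR-9#.

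The study names miR-9#, miR-145 and miR-126 as miRNAs that repress SOX2. In 2102Ep cells, where miR-9# rose, miR-145 had a change of 0.57 (SE 0.29, adjusted p = 0.246), measured in 2 of 3 siSOX2 samples, and miR-126 of -0.14 (SE 0.18, adjusted p = 0.727). In NTera-2 cells, where miR-9# did not pass, miR-145 rose by 1.49 (SE 0.26, adjusted p = 0.0116) and miR-126 had a change of -0.54 (SE 0.18, adjusted p = 0.118).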

How the data were processed

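Raw Ct and dCt, both log2 values in cycles, were deposited by the authors for 12 samples, without pooling. The authors exported raw Ct from DataAssist 3.0 and subtracted a constant per sample and card to give dCt. Within a tolerance of 0.02 cycles the constant was the mean of miR-16 and U6 on card A. On card B it was the mean of miR-16-1#, RNU48 and U6 for NTera-2 samples and was taken as given for 2102Ep samples. A further deposited table of the authors' own fold changes and p-values was not used. The aligner and genome build do not apply to PCR cards.

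From row 106 on, the raw Ct column of 2102Ep siSOX2 replicate 3 was out of line by 1 measured row (0.885% of 339 values at the constant as placed, 99.7% once moved), so the constant was added to dCt to restore raw Ct in that stretch. The same was done for miR-142-3p and miR-586 where raw Ct was empty. An assay counted as measured below cycle 40. PCR after pre-amplification gives no molecule counts, so precision rests on the 3 samples per group.

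An assay was tested where each group had a dCt in 2 or more of its 3 samples. limma 3.58.1 (R 4.3.3) fitted 4 group means to minus dCt over the 12 samples, with eBayes moderation, two-sided p-values, Benjamini-Hochberg adjustment over all assays tested and calls at an adjusted p under 0.05. Contrasts were siSOX2 minus NC for each line, and 2102Ep less NTera-2 of both. Between the lines, minus raw Ct over the mean of the card's assays measured in all 12 samples (224 on card A, 146 on card B) was used. A log2 fold change is the mean dCt of NC less that of siSOX2. Permutation tests used scipy 1.17.1, and the scripts were tested on simulated data.

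Residual dCt was correlated between siSOX2 and NC samples of each line. For replicates 1, 2 and 3 of 2102Ep, r was 0.158, 0.169 and 0.064, and unlike numbers gave 0.036 at most. For those of NTera-2, r was 0.118, 0.265 and 0.160, and unlike numbers gave 0.054 at most. Whether equal numbers mark paired samples is not settled in either line. The main fit did not pair samples, and the replicate block, run for both lines, did. Same-numbered samples of different lines had r of -0.066 to 0.095.

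The text names both strands, neural list members past the threshold, the 5 assays most correlated with each strand, the reference RNAs, hairpins adjacent to miR-9 in strand difference, miR-145 and miR-126. The members, lists and alternatives were chosen with earlier results of these data known. Alternatives were U6, global mean, global median, or RNU44 with RNU48 as reference, a mean raw Ct of 35 or less, complete assays only, an eBayes trend, the 6 samples compared alone, the replicate block, the deposited dCt or raw Ct, and each sample left out.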

Additional observations from a re-analysis of the deposited data

Results flagged for a closer look

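The change of miR-9# on SOX2 silencing differed between the lines, by 2.132 on the log2 scale (2102Ep minus NTera-2), in a test of that difference itself (adjusted p = 0.00387 with limma). The range over all alternatives was 1.60 to 2.62, with adjusted p between 0.00290 and 0.0412.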

How the results depend on the processing

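miR-9# kept its call in 2102Ep cells, its difference between the lines kept its call, and both strands stayed below the threshold in NTera-2 cells under every alternative run. U6 could not be run for miR-9# where 2102Ep cells enter, because their card B table holds no U6 here. For miR-9 in 2102Ep cells, the log2 change ran from 0.74 to 2.03 with 1 sample left out and was called without NC replicate 1 alone.

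In control cells, miR-9 between the lines had 0.93 by the card median (adjusted p = 0.144) and 1.45 with the 6 samples alone or the replicate block (0.0809 and 0.0950), and was larger with the deposited dCt, U6 and RNU44 with RNU48 (5.09, 5.63 and 2.97). It ran from 0.68 to 1.91 with 1 sample left out. miR-9# turned from -2.49 to 5.87 with the deposited dCt and was -0.14 against RNU44 and RNU48. After silencing it turned from -0.89 to 8.01 and 2.48 under these and was -0.31 by the card median. The strand difference between the lines turned to 0.78 (NC) and 2.07 (siSOX2) with the deposited dCt, its change in NTera-2 cells to 0.062 with the global mean, and its mean change over both lines, 0.31 to 0.76 with other samples left out, to -0.087 without 2102Ep NC replicate 1.

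Assays called in 2102Ep cells ran from 41 (without NC replicate 3) to 57 with 1 sample left out. In NTera-2 cells the count of 25 fell to 15 with the global mean, 16 with the median or with RNU44 and RNU48, 11 with the 6 samples alone and 9 with the replicate block, and to 10 to 24 with 1 sample left out (10, 15 and 14 without NC replicate 3, siSOX2 replicate 1 and siSOX2 replicate 2). For the difference between the lines the count of 24 was 11 with the median, 41 with RNU44 and RNU48, 4 with the replicate block, and 6 to 29 with 1 sample left out. It was 15, 12 and 7 without 2102Ep NC replicates 1, 2 and 3, 14 without 2102Ep siSOX2 replicate 1, 6 without NTera-2 NC replicate 3, and 7, 9 and 13 without NTera-2 siSOX2 replicates 1, 2 and 3. Of the calls, 32% were higher in NTera-2 siSOX2 with the deposited dCt and 60% with the global mean. In 2102Ep siSOX2 this was 31.7%, and 69.5% with RNU44 and RNU48, where the median change was 0.43. For the difference it was 62.5%, and 36.8%, 18.2% and 92.7% with the mean, the median, and RNU44 and RNU48.

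Neural assays called were 1 in 2102Ep cells with RNU44 and RNU48. In NTera-2 cells they were 0 with U6, with RNU44 and RNU48, with the 6 samples alone and with the replicate block (4, 4, 5 and 5 of 15 at an unadjusted p under 0.05), 1 with the median, and 0 to 3 with 1 sample left out. For the difference they were 0 with RNU44 and RNU48 and with the block, and 1 to 2 with 1 sample left out (2 without NTera-2 NC replicate 2). Between the lines in control cells they were 11 with the deposited dCt and 4 to 8 with 1 sample left out. The cause of these shifts was not tested. The block changed no other call of miR-9 or miR-9#.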
